A study of Drosophila melanogaster with 44 samples.

Results

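The genes described here encode the factors that carry a ribosome through translation: the initiation factors (eIF), elongation factors (eEF) and release factors (eRF) of the cytoplasm. They were taken by FlyBase symbol, every symbol that starts with eIF, eEF or eRF followed by a digit, which gave 53 of the 17807 genes listed in the expression files. Their RNA was measured in 12 poly(A)+ RNA-seq libraries, and the other samples (ChIP-seq, Micro-C) were not analysed here. Mod(mdg4) is an insulator protein with many splice variants, and the study lowered its variant N, or all variants, in ovaries and in ovarian cells. Mutant ovaries (3 libraries) came from flies homozygous for a CRISPR frameshift mutation in the exon specific to variant N, labelled Mod(mdg4) RN1-2/1-2 in a y1 w1118 background, so they represent a single allele. Wild-type ovaries (3 libraries) came from y1 w1118 flies. Both are whole ovaries, with germline, follicle cells and muscle sheath together, and the age of the flies was not given. OSC are a cultured line of ovarian somatic cells derived from follicle cells. They received siRNA against Mod(mdg4)-N, against all variants (Mod(mdg4)-All KD), or against EGFP as the control (2 libraries each), and every OSC group, the control included, was transfected.

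In eukaryotes eIF2 brings the initiator tRNA to the small ribosomal subunit as a GTP-bound trimer, and eIF2B recharges it with GTP, a step that stress kinases block by phosphorylating the alpha subunit of eIF2. The many-subunit eIF3 holds the small subunit, and the cap-binding eIF4E, the scaffold eIF4G and the helicase eIF4A recruit the mRNA. eIF1, eIF1A and eIF5 govern the choice of the start codon, and eIF5B joins the large subunit. Elongation then runs on eEF1, which delivers tRNAs, eEF2, which moves the ribosome along, and eEF5, the fly name for eIF5A, which helps at difficult peptide bonds, while eRF1 and eRF3 end the chain. Ovaries make large amounts of this machinery, since nurse cells load the egg with ribosomes and mRNA.

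The library totals were between 13728168 and 20244538 expected counts. Gene-level counts of mod(mdg4), the targeted gene, sum all its variants. In OSC it had 108 and 109 CPM after Mod(mdg4)-All KD, 564 and 546 CPM after Mod(mdg4)-N KD and 617 and 590.2 CPM after EGFP KD (CPM here and below are library-scaled counts after TMM, which was run separately for ovary and OSC). The change was -2.47 ± 0.09 (SE) on the log2 scale in Mod(mdg4)-All KD (adjusted p = 0.000366) and -0.12 in Mod(mdg4)-N KD (adjusted p = 1). In ovary it had 468, 601 and 684 CPM in the mutants, against 669, 749 and 927 CPM in wild type (log2 fold change -0.42 ± 0.18 (SE), adjusted p = 0.134), so the gene sum checks the label only for Mod(mdg4)-All KD.

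Translation factors made up a like share of the transcriptome in each tissue and condition. Their summed TPM (a share of transcripts, corrected for gene length) was 3.02 to 3.16% of the total in mutant ovaries, 3.05 to 3.22% in wild-type ovaries and 2.84 to 3.05% in the 6 OSC libraries. Elongation factors were the most abundant. eEF1alpha1, which carries tRNAs to the ribosome, stood at 8044, 7454 and 7235 TPM in mutant ovaries, 8641, 8440.5 and 8225 TPM in wild-type ovaries and 8195 and 8069.5 TPM in EGFP KD OSC. eIF4A was the leading initiation factor, with 1755, 1639.6 and 1637 TPM in wild-type ovaries and 3719.9 and 3743 TPM in EGFP KD OSC. The 5 subunits of eIF2B, the exchange factor of eIF2, were together at 262 to 283 TPM in mutant and 216 to 259 TPM in wild-type ovaries, while the 3 subunits of their substrate eIF2 summed to 1271 to 1403 TPM in mutant and 868 to 948 TPM in wild-type ovaries.

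**Figure D1:**
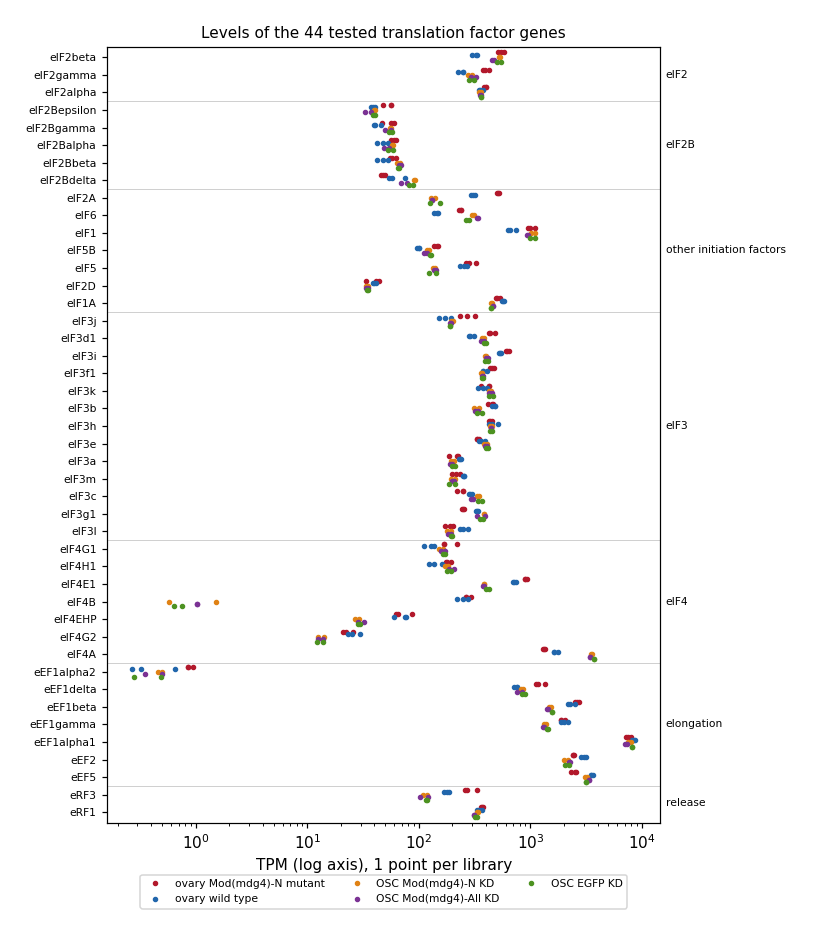
TPM of the 44 translation factor genes with enough counts to be tested, on a log axis, with 1 point per library and rows grouped by role (mutant ovary, wild-type ovary, OSC Mod(mdg4)-N KD, OSC Mod(mdg4)-All KD, OSC EGFP KD, top to bottom within a row). eEF1alpha1 lies near the top at 7016 to 8641 TPM, and eIF4B is the gene whose OSC points, 0.58 to 1.52 TPM, lie farthest from its ovary points, 220.01 to 292.84 TPM.

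Of the 53 genes, 44 had enough counts to be tested in at least 1 comparison, and 9 had not. eIF3d2, eIF3g2 and eIF4E4 had 0 counts in all 12 libraries, which with a limit of 3 counts allows up to 0.148 to 0.219 CPM per library. eIF3f2, eIF4E3, eIF4E5, eIF4E6, eIF4E7 and eIF4H2 had at most 14 counts in any library. Each has a paralogue in the group that was expressed at higher levels.

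Promoters of the group were read from the dm6 reference sequence because 2 short sequences are characteristic of genes for the translation machinery and for growth in flies. The first is the polypyrimidine (TCT) initiator, searched as TCTTT or CCTTT on the gene's strand with its C within 5 bases of the annotated start. It occurred in 4 of the 53 genes (7.55%), against 2.18% of 13865 protein-coding genes and 44.3% of 88 cytoplasmic ribosomal protein genes. The 4 windows run from 20 bases before the start to 9 after it, with the searched letters in capitals.
eIF4A, chr2L:5981744-5981773, plus strand: taaaacttttgcaagatggagccTCTTTtg
eEF2, chr2L:21682107-21682136, minus strand: ctatggtcgctgcagcgcctcgcTCTTTcc
eIF3i, chr2L:4967766-4967795, minus strand: ttgactaggccacggtcacactgcTCTTTt
eIF3f1, chr3R:4714173-4714202, minus strand: ccccacccgcactatcgataggcCCTTTtc

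The second is TATCGATA, the core of the DNA replication-related element bound by the factor DREF, which reads the same on both strands. It occurred between 250 bases before and 50 after the start in 15 of the 53 genes (28.3%), against 9.13% of protein-coding genes and 29.5% of the cytoplasmic ribosomal protein genes. The windows below show the element in capitals with 10 bases on each side for genes whose levels are described next, eIF2alpha and eIF2gamma of the eIF2 trimer, eIF3l of eIF3, eEF1delta of eEF1 and the ovary-enriched eIF4B.
eIF2alpha, chrX:16446989-16447016, minus strand: cgcaattaaaTATCGATAacaccactgt
eIF2gamma, chr3R:15263450-15263477, minus strand: attagagcacTATCGATAggcattgtcg
eIF3l, chr3L:12146098-12146125, minus strand: gtagtatcatTATCGATAgttggtcaca
eEF1delta, chr2L:10232468-10232495, plus strand: atggcgtagaTATCGATAtacctgcatt
eIF4B, chr3L:27858273-27858300, minus strand: ccgaaataaaTATCGATAacgatatagg
In eIF2gamma the copy shown begins 9 bases before the start and is 1 of 3. A match describes letters in a window and says nothing of binding. CACGTG, the E-box, which also reads the same on both strands and was searched in the same span, was found in 4 of the 53 genes (7.55%) and in 4.2% of protein-coding genes.

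In Mod(mdg4)-N mutant ovaries, genes for translation factors changed in both directions. Of 44 tested, 10 were higher and 5 were lower than in wild type at an adjusted p under 0.05 (edgeR quasi-likelihood test, Benjamini-Hochberg over all genes), 34.1% against 18.1% of all 7934 genes tested. The shares by direction in all genes were 11.7% higher and 6.42% lower. The median log2 fold change of the 44 was 0.13 (quartiles -0.18 and 0.52), and that of all genes was -0.01 (quartiles -0.27 and 0.31). The 3 mutant and 3 wild-type libraries did not overlap for 29 of the 44, which were higher in mutants for 19 and lower for 10, and they did not overlap for 45.2% of all genes (23.6% higher, 21.6% lower). The 19 include eEF1alpha2, which had enough counts to be tested only through its mutant libraries. None of the 15 changes reached 2-fold.

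**Figure D2:**
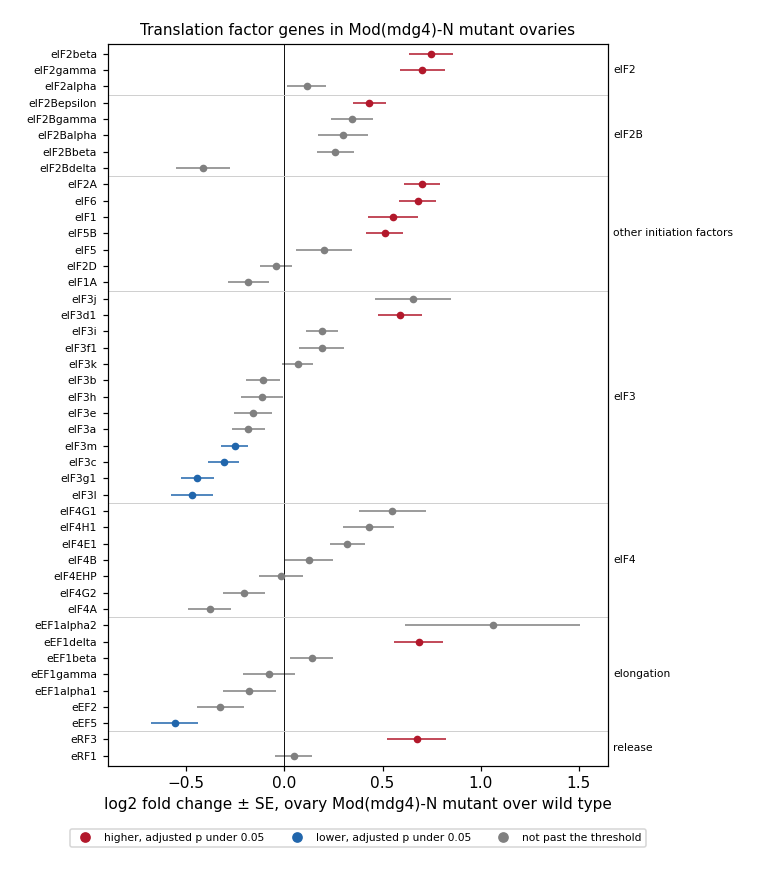
Log2 fold change with standard error of the 44 tested translation factor genes, 3 Mod(mdg4)-N mutant over 3 wild-type ovary libraries, in groups by role and sorted within a group (edgeR). eIF2beta and eIF2gamma lie at 0.75 and 0.70, while eIF3l, eIF3g1, eIF3c and eIF3m lie between -0.47 and -0.25.

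The count of 15 depended on single libraries. Without mutant replicate 2 or without wild-type replicate 2 no member was called, without wild-type replicate 1 it was 5 (eIF2beta, eIF2gamma, eIF2A, eIF6 and eIF2Bepsilon) and without wild-type replicate 3 it was 6, while it was 11 without mutant replicate 1 and 15 without mutant replicate 3. None of the 15 changed sign in these fits. Calls over all genes moved as well, from 1438 of 7934 tested with all 6 libraries. They were 184 of 8085 without mutant replicate 2 and 158 of 8070 without wild-type replicate 2. Without wild-type replicates 1 and 3 in turn they were 810 of 8061 and 816 of 8156. Without mutant replicates 1 and 3 in turn they were 838 of 8080 and 1438 of 8140.

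Of the eIF2 trimer, 2 of 3 subunits were higher in mutant ovaries. eIF2beta (FBgn0004926, chr3L:12525093-12526731), the subunit that contacts eIF5, had 482, 392 and 384 CPM in mutant libraries, against 267, 232 and 252 CPM in wild type. Every mutant library lay above every wild-type library, and the log2 fold change was 0.75 ± 0.11 (SE), adjusted p = 0.0115. eIF2gamma (FBgn0263740, chr3R:15257844-15263458), the GTP-binding subunit, had 663, 536 and 519 CPM in mutants and 376, 329 and 350.5 CPM in wild type, again without overlap (log2 fold change 0.70 ± 0.12 (SE), adjusted p = 0.0141). eIF2gamma shares 352 of its 2203 exon bases with Su(var)3-9 on the same strand, so reads from that stretch were divided between them by estimation. eIF2alpha, the subunit that the stress kinases phosphorylate, had 374, 322 and 314 CPM in mutants and 337, 298 and 298 CPM in wild type, and the groups overlapped (log2 fold change 0.11 ± 0.10 (SE), adjusted p = 0.425). Whether it differed from its partners was not tested, and 192 of its 1519 exon bases overlap rngo on the opposite strand.

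Of the 5 eIF2B subunits, 1 was called. eIF2Bepsilon, the catalytic subunit, had 94.5, 99.9 and 92.1 CPM in mutants and 77.4, 67.5 and 67.6 CPM in wild type (log2 fold change 0.43 ± 0.08 (SE), adjusted p = 0.0214), with all mutant libraries above. eIF2Bgamma, eIF2Balpha and eIF2Bbeta had positive values between 0.26 and 0.34 that did not pass. eIF2Bdelta had the opposite sign, with 82.2, 69.1 and 67.5 CPM in mutants and 92.8, 84.1 and 114.8 CPM in wild type (log2 fold change -0.42 ± 0.14 (SE), adjusted p = 0.0804).

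A further 4 of 7 initiation factors, those outside the complexes, were higher. eIF2A, which in mammals can bind initiator tRNA without eIF2, had 992, 916 and 871 CPM in mutants and 607, 571 and 533 CPM in wild type (log2 fold change 0.70 ± 0.09 (SE), adjusted p = 0.00888). eIF6, which keeps free large subunits from joining too early and takes part in their maturation, had 184, 160.0 and 155 CPM in mutants and 109, 99.4 and 104 CPM in wild type (log2 fold change 0.68 ± 0.09 (SE), adjusted p = 0.00976). In both genes the lowest mutant library was well above the highest wild-type one. eIF1, the gatekeeper of start codon choice, had 467, 387 and 344 CPM in mutants and 264, 297 and 256 CPM in wild type (log2 fold change 0.55 ± 0.13 (SE), adjusted p = 0.0329). eIF5B, the GTPase of subunit joining, had 529.8, 443 and 436 CPM in mutants and 331, 331 and 327 CPM in wild type (log2 fold change 0.51 ± 0.09 (SE), adjusted p = 0.0188). The wild-type libraries of eIF5B were almost equal, and all 3 mutants lay above them. eIF1A and eIF2D, the other members of this group beside eIF5, had log2 fold changes of -0.18 and -0.04 and did not pass.

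eIF5, the GTPase-activating protein of eIF2, overlaps another annotated gene. It had 694, 510.2 and 507 CPM in mutants and 478, 534 and 476 CPM in wild type (log2 fold change 0.20 ± 0.14 (SE), adjusted p = 0.326). CG46312 is annotated over 2588 of its 3203 exon bases (80.8%), on the same strand, and had 72.2, 60.9 and 75.1 CPM in mutants, against 0, 0.298 and 0 CPM in wild type. Reads over the shared exons cannot be assigned with certainty. With the counts of both genes added together, an alternative chosen after seeing the data, the log2 fold change of the sum was 0.37 with an adjusted p of 0.0965, so the call did not change. Smaller stretches overlap on the same strand in eRF1 (with CG5618), eIF4EHP (with Syx1A) and eIF4G2 (with CG33111). On the opposite strand the longest are in eIF3h (with senju, 252 of 1496 exon bases) and eIF2alpha (with rngo, 192 of 1519). Other members with such overlaps include eRF3 (with SC35) and eIF2Bepsilon (with mip130). The paper names a stranded library kit, and the RSEM command it prints for gene counts holds no strand option.

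Of the 16 eIF3 genes, 13 were tested, and more of them were lower than higher, 4 against 1. eIF3l had 252, 272 and 238 CPM in mutants, against 396, 344 and 318 CPM in wild type (log2 fold change -0.47 ± 0.11 (SE), adjusted p = 0.0298). eIF3g1, a subunit with an RNA-binding domain, had 181, 168 and 161 CPM in mutants, against 246, 224 and 223 CPM in wild type (log2 fold change -0.45 ± 0.08 (SE), adjusted p = 0.02). eIF3c, part of the core, had 587, 607 and 569 CPM in mutants, against 777, 710.3 and 698 CPM in wild type (log2 fold change -0.31 ± 0.08 (SE), adjusted p = 0.0435). In these genes no mutant library reached the lowest wild-type one. eIF3m was lower by less, with 214, 212 and 214 CPM in mutants and 266, 252 and 245 CPM in wild type (log2 fold change -0.25 ± 0.07 (SE), adjusted p = 0.0496), and it lost its call in 10 of 14 alternatives, while eIF3c lost it in 8.

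eIF3d1 went the other way. This subunit, which in mammals can itself bind the cap of some mRNAs, had 787, 644 and 612 CPM in mutants and 459.6, 435 and 464 CPM in wild type (log2 fold change 0.59 ± 0.11 (SE), adjusted p = 0.0203). eIF3j, a loosely attached subunit, had 296, 229.8 and 184 CPM in mutants and 175, 148 and 128 CPM in wild type. Its log2 fold change was 0.66 ± 0.20 (SE), adjusted p = 0.0619, and the adjusted p was 0.0139 in the fit with a replicate block. The other subunits, eIF3a, eIF3b, eIF3e, eIF3f1, eIF3h, eIF3i and eIF3k, had values between -0.18 and 0.19 and were not called. The summed TPM of the eIF3 genes overlapped between groups, 4438 to 4590 in mutants and 4349 to 4570 in wild type.

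None of the 7 tested eIF4 genes was called, although 4 had an unadjusted p under 0.05. eIF4A, the helicase that unwinds mRNA leaders, had 1699.6, 1532 and 1394 CPM in mutants, against 2171, 1950.3 and 1903 CPM in wild type, without overlap (log2 fold change -0.38 ± 0.11 (SE), adjusted p = 0.0583). eIF4E1, the main cap-binding protein, had 1053, 953 and 935 CPM in mutants and 809.7, 806 and 741 CPM in wild type, also without overlap (log2 fold change 0.32 ± 0.09 (SE), adjusted p = 0.052). In the fit with a replicate block both passed, with adjusted p values of 0.0198 for eIF4A and 0.0292 for eIF4E1. eIF4G1, the scaffold, had 1069.8, 758 and 703 CPM in mutants and 529, 622 and 577 CPM in wild type (log2 fold change 0.55 ± 0.17 (SE), adjusted p = 0.0675). Mutant replicate 1 stood well above the other libraries. eIF4H1 had a log2 fold change of 0.43, and eIF4B, eIF4EHP and eIF4G2 were between -0.21 and 0.12.

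**Figure D3:**
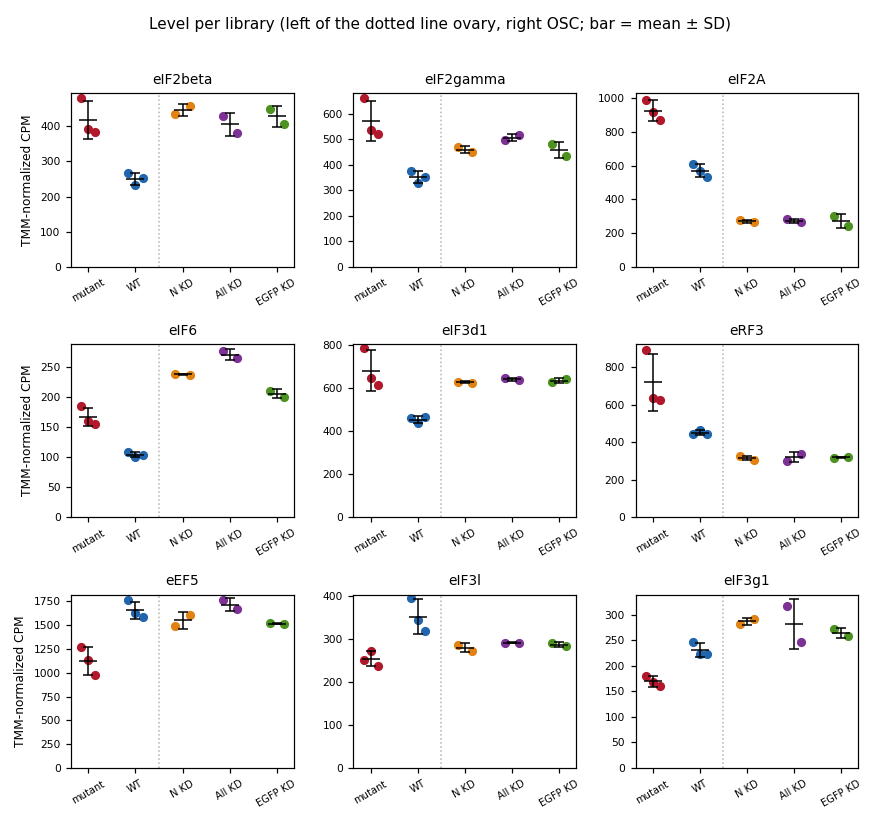
TMM-normalized CPM per library of 9 genes called in ovary, with points for libraries, bars for the mean ± SD and both tissues scaled separately; mutant and wild-type ovary are left of the dotted line, the 3 OSC groups right of it. Mutant points of eIF2beta, eIF2gamma, eIF2A, eIF6, eIF3d1 and eRF3 lie above wild type, and those of eEF5, eIF3l and eIF3g1 below; in OSC the eIF6 points are at 264 to 276 CPM after Mod(mdg4)-All KD and 200.5 to 210.2 CPM after EGFP KD.

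Among 7 elongation factors, 1 was higher and 1 lower. eEF1delta, a subunit of the complex that recharges eEF1alpha with GTP, had 852, 656 and 631 CPM in mutants and 445, 447 and 440.2 CPM in wild type (log2 fold change 0.68 ± 0.13 (SE), adjusted p = 0.0191). Its partners in that complex, eEF1beta and eEF1gamma, had values of 0.14 and -0.08 and were not called. eEF5, the hypusine-bearing factor, had 1266, 1134 and 976 CPM in mutants, against 1760.4, 1625 and 1586 CPM in wild type (log2 fold change -0.56 ± 0.12 (SE), adjusted p = 0.0258), with no overlap. eEF2, the translocase, had 5651, 5244 and 4823 CPM in mutants, against 7189, 6544 and 5993 CPM in wild type (log2 fold change -0.33 ± 0.12 (SE), adjusted p = 0.0962), and its adjusted p was 0.0223 with the replicate block. eEF1alpha1 had 13357, 11283 and 10204 CPM in mutants and 13939, 13081 and 12423 CPM in wild type, and these overlapped (log2 fold change -0.18 ± 0.14 (SE), adjusted p = 0.365). Its paralogue eEF1alpha2 was near the limit of detection, with 1.87, 1.68 and 1.73 CPM in mutants and 0.672, 1.31 and 0.538 CPM in wild type (log2 fold change 1.06 ± 0.45 (SE), adjusted p = 0.132). All mutant libraries were above 1 CPM, but only replicate 2 of wild type was. It was thus tested through the group where it was higher, and its value is not read as a change. Summed over the elongation factors, TPM was 17751 to 18910 in mutants and 19346 to 20904 in wild type.

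Of the release factors, eRF3 was called and eRF1 was not. eRF3, the GTPase that assists release, had 895, 638 and 626 CPM in mutants and 442, 466 and 446 CPM in wild type (log2 fold change 0.67 ± 0.15 (SE), adjusted p = 0.0293), with mutant replicate 1 the highest. eRF1, which recognises stop codons, had 540.3, 468 and 447 CPM in mutants and 462, 491 and 455 CPM in wild type, and the groups overlapped (log2 fold change 0.05 ± 0.09 (SE), adjusted p = 0.723).

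Of the 14 tested genes with TATCGATA, 3 were higher and 2 lower in mutants (median log2 fold change 0.08), and of the 30 without it 7 were higher and 3 lower (median 0.20). None of the 4 genes with the TCT letters was called (median -0.07).

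Marker genes of other cells and stages were read beside these values, and in bulk tissue fewer cells of a type and less RNA per cell cannot be told apart. The 11 eggshell and late follicle cell markers summed to 12170 to 13670 CPM in mutants and to 2944, 7949 and 11460 CPM in wild type, with wild-type replicate 1 the lowest, and 2 of the 11 were higher in mutants. Eggshell genes differed widely among the wild-type libraries. Cp36 had 0.856, 1142 and 1991 CPM in wild-type replicates 1 to 3, and Cp38 had 1.16, 1538 and 3218 CPM. Vm26Aa differed less, with 1974, 2242 and 1971 CPM. The 7 germline markers tested summed to 3445 to 4305 CPM in mutants and 2973 to 3573 CPM in wild type, with 2 higher and 1 lower. This sum hides moves in both directions. bam had 142.8, 144.8 and 132.6 CPM in mutants and 34.1, 41.65 and 50.03 CPM in wild type. vas had 165.8, 165.8 and 137.6 CPM in mutants and 225.9, 209.3 and 229 CPM in wild type. The 5 follicle cell and OSC markers summed to 389.9 to 541 CPM in mutants and 387 to 479.6 CPM in wild type, with none higher and 1 lower. The 4 haemocyte and fat body markers summed to at most 1.95 CPM in mutants and 2.57 CPM in wild type. Muscle sheath markers (5 genes) summed to 52.9 to 100.1 CPM in mutants and 84.1 to 160.2 CPM in wild type, and none was called. The 7 testis markers summed to 15.1 to 19.8 CPM in mutants and 6.45 to 8.29 CPM in wild type, nearly all from bol, which was called higher, with dj, ProtA and Mst84Da at 0 in every library. The part of these differences in the translation factor values was not tested.

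Genes outside the symbol rule that act on the same steps were read in the same fit. Of 24 translation control genes tested, 3 were higher and 4 lower in mutant ovaries (median log2 fold change 0.09). Higher were crc, the fly ATF4 (0.60 ± 0.14 (SE)), pAbp, the poly(A)-binding protein (0.52 ± 0.14 (SE)), and nero, an enzyme of the hypusine modification of eEF5 (0.27 ± 0.08 (SE)). Lower were both kinases of eIF2alpha, Gcn2 (-0.56 ± 0.15 (SE)) and PEK (-0.55 ± 0.11 (SE)), the pAbp inhibitor Paip2 (-0.48 ± 0.08 (SE)) and Rack1, a protein of the small ribosomal subunit (-0.80 ± 0.15 (SE)). Of 9 mitochondrial translation factors, 4 were higher and none lower (median 0.27), with mEFTu1 at 0.88 ± 0.12 (SE), mIF2 at 0.60 ± 0.13 (SE), mEFTu2 at 0.48 ± 0.10 (SE) and mEFTs at 0.31 ± 0.08 (SE). Of 82 cytoplasmic ribosomal protein genes tested, none was higher and 30 were lower (median -0.47). In that fit 11.7% of all genes were higher and 6.42% lower. In OSC the median of the ribosomal protein genes was 0.06 after Mod(mdg4)-N KD and 0.17 after Mod(mdg4)-All KD.

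In OSC with Mod(mdg4)-N KD, no translation factor passed the test. None of 43 tested was called, with 1 at an unadjusted p under 0.05, and 0.0247% of all 8106 genes tested were called. The values lay between -0.05 and 0.38 (median 0.02), and the libraries of the groups did not overlap for 12 of the 43, against 27.5% of all genes. eIF6 was the 1 gene with the low unadjusted p. It had 238 and 237 CPM after Mod(mdg4)-N KD and 210.2 and 200.5 CPM after EGFP KD (log2 fold change 0.21 ± 0.07 (SE), adjusted p = 1). DESeq2 and limma-voom called none either.

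With Mod(mdg4)-All KD, the test called none of 44 genes (1 at an unadjusted p under 0.05) and 1.1% of all 8126 genes tested. The groups did not overlap for 23 of the 44, eIF4B among them, against 45% of all genes, in both directions together. The median log2 fold change of the 44 was 0.06, and that of all genes was 0.0035 (quartiles -0.12 and 0.13). eIF6 again had the lowest p, with 276 and 264 CPM after Mod(mdg4)-All KD and 210.2 and 200.5 CPM after EGFP KD, both knockdown libraries above both controls (log2 fold change 0.40 ± 0.09 (SE), adjusted p = 0.128). It passed with DESeq2 (log2 fold change 0.40, adjusted p = 0.0113) and with all 6 OSC libraries in a single fit (0.40, adjusted p = 0.0408). Both knockdowns are set against the same EGFP KD libraries, so their values are not independent of each other. Next by p were eEF5 at 0.18 ± 0.08 (SE), eIF4B at 0.73 ± 0.37 (SE) and eIF4H1 at 0.17 ± 0.09 (SE). eIF4B had 19 and 20 counts after Mod(mdg4)-All KD and 14 and 14 after EGFP KD. Only its Mod(mdg4)-All KD libraries were above 1 CPM (1.44 and 1.36, against 0.824 and 0.861). It was tested through the group where it was higher, so its value is not read as a change. Setting Mod(mdg4)-All KD directly against Mod(mdg4)-N KD, none of 44 was called, 2 had an unadjusted p under 0.05 (eIF4H1 at 0.19 and eIF6 at 0.19), and 1.15% of all genes were called. Without Mod(mdg4)-All KD replicate 1, which leaves 1 library in that group, eIF2Bdelta was at -0.41 in that comparison. It had 143 and 116 CPM after Mod(mdg4)-All KD and 153 and 156 CPM after Mod(mdg4)-N KD.

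**Figure D4:**
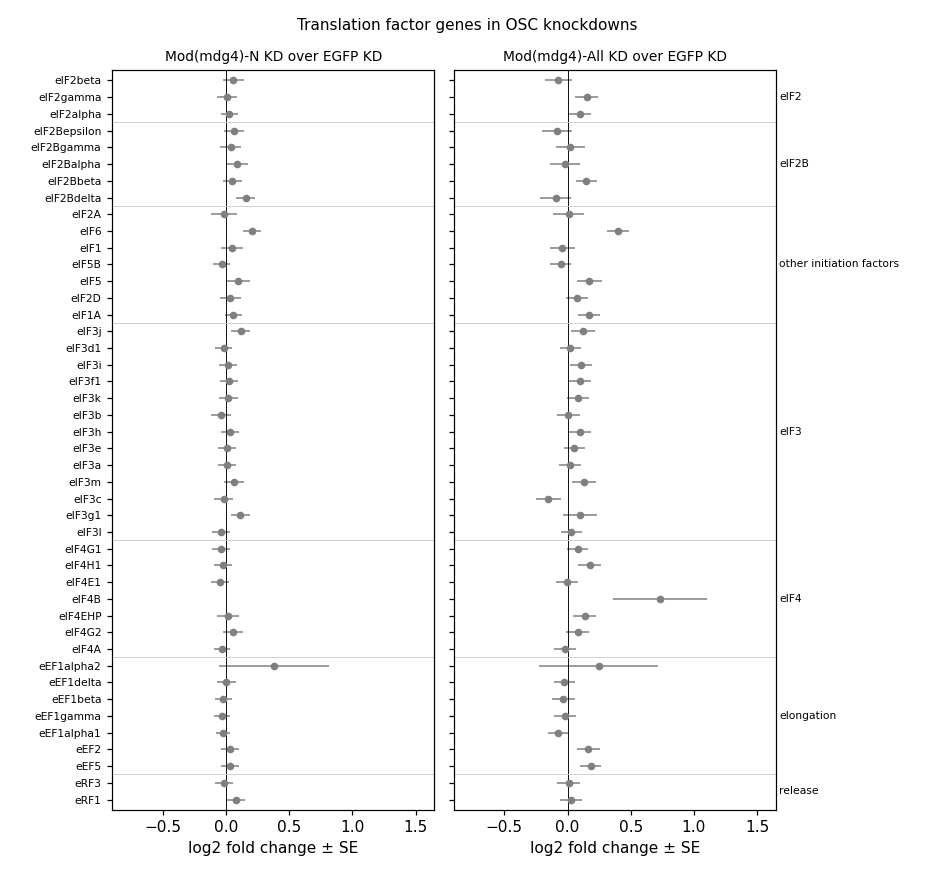
Log2 fold change with standard error of the tested translation factor genes after KD of Mod(mdg4)-N (left) or of all variants (right), each over EGFP KD in OSC (2 libraries a group, edgeR) in the row order used for ovary; eIF4B was not tested on the left. No gene passed the threshold, and eIF6 lies at 0.21 on the left and 0.40 on the right.

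The other genes reported whatever their result had small values in OSC. After Mod(mdg4)-N KD the log2 fold change was 0.03 for eIF2alpha, -0.03 for eIF4A, -0.05 for eIF4E1, -0.04 for eIF4G1 and 0.10 for eIF5. After Mod(mdg4)-All KD it was 0.10 for eIF2alpha, -0.02 for eIF4A, -0.0029 for eIF4E1, 0.08 for eIF4G1 and 0.17 for eIF5. For elongation and release, Mod(mdg4)-N KD gave -0.02 for eEF1alpha1, 0.03 for eEF2, 0.08 for eRF1 and -0.02 for eRF3, and Mod(mdg4)-All KD gave -0.08, 0.16, 0.03 and 0.01 for these genes. eEF1alpha2 had 10 to 20 counts per OSC library and values of 0.38 ± 0.44 (SE) after Mod(mdg4)-N KD and 0.25 ± 0.47 (SE) after Mod(mdg4)-All KD.

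The effect of Mod(mdg4)-N loss in ovary was then tested against that in OSC, as an interaction over 10 libraries. It differed for 2 of 44 genes, 1 more positive and 1 more negative in ovary, against 3.31% of all 9011 genes tested (2.51% more positive, 0.799% more negative). eIF3g1 was at -0.45 in ovary and 0.11 in OSC (difference -0.57 ± 0.10 (SE), adjusted p = 0.026). eIF2A was at 0.70 in ovary and -0.01 in OSC (difference 0.70 ± 0.15 (SE), adjusted p = 0.0431). The next in order, eIF2beta (0.67, adjusted p = 0.0562), eIF2gamma (0.68, adjusted p = 0.0589) and eIF5B (0.53, adjusted p = 0.0603), did not pass. In the fit with a replicate block 7 genes passed, adding eIF2beta, eIF2gamma, eIF6, eIF3j and eEF5. Leaving out single libraries gave between 0 and 8, with 0 without mutant replicate 2, wild-type replicate 2 or any 1 of the 4 OSC libraries, 1 without wild-type replicate 3, 7 without mutant replicate 3 and 8 without mutant replicate 1. The tissue and the way Mod(mdg4)-N was removed, a mutation in flies or siRNA in cells, differ together and cannot be told apart.

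Wild-type ovaries and EGFP KD OSC differed in most translation factor genes. Of 44, 12 were higher and 17 lower in wild-type ovary, 65.9% against 68.8% of all 8685 genes tested (35.5% higher, 33.3% lower), so the share is near that of genes at large. With RLE size factors the split was 8 higher and 18 lower. The median log2 fold change was -0.07, and 4 genes differed by more than 2-fold. Without EGFP KD replicate 1 the count was 18, and without replicate 2 it was 19. Tissue, genotype, culture and transfection differ together here and cannot be told apart.

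eIF4B, an RNA-binding cofactor of eIF4A, was the gene that differed most. It had 220.0, 248 and 274 TPM in wild-type ovaries, against 0.64 and 0.75 TPM in EGFP KD OSC, a 325-fold difference (log2 fold change 8.34 ± 0.15 (SE), adjusted p = 4.00e-06). Its counts were 4343 to 6266 in ovary libraries and 11 to 36 in OSC libraries, so in OSC it was at the edge of detection. In the EGFP KD libraries it had 14 and 14 counts (0.824 and 0.861 CPM), and it passed the filter through its ovary libraries alone. The fold is therefore a rough size. Its standard error was derived from F and does not show how uncertain so few counts leave it. eIF4H1, a protein related to it in function, was present in both, with 123, 137 and 162 TPM in wild-type ovaries and 194 and 178 TPM in EGFP KD OSC, lower in ovary per TMM-normalized count (log2 fold change -0.64 ± 0.10 (SE), adjusted p = 0.00234). The 7 germline markers summed to 2973 to 3573 CPM in wild-type ovaries and 18.3 to 18.8 CPM in EGFP KD OSC, where zpg was at 0 in both libraries, and the 5 follicle cell and OSC markers to 387 to 479.6 CPM in wild-type ovaries and 2163 to 2507 CPM in EGFP KD OSC. Whether eIF4B RNA in the ovary came from the germline was not tested.

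**Figure D5:**
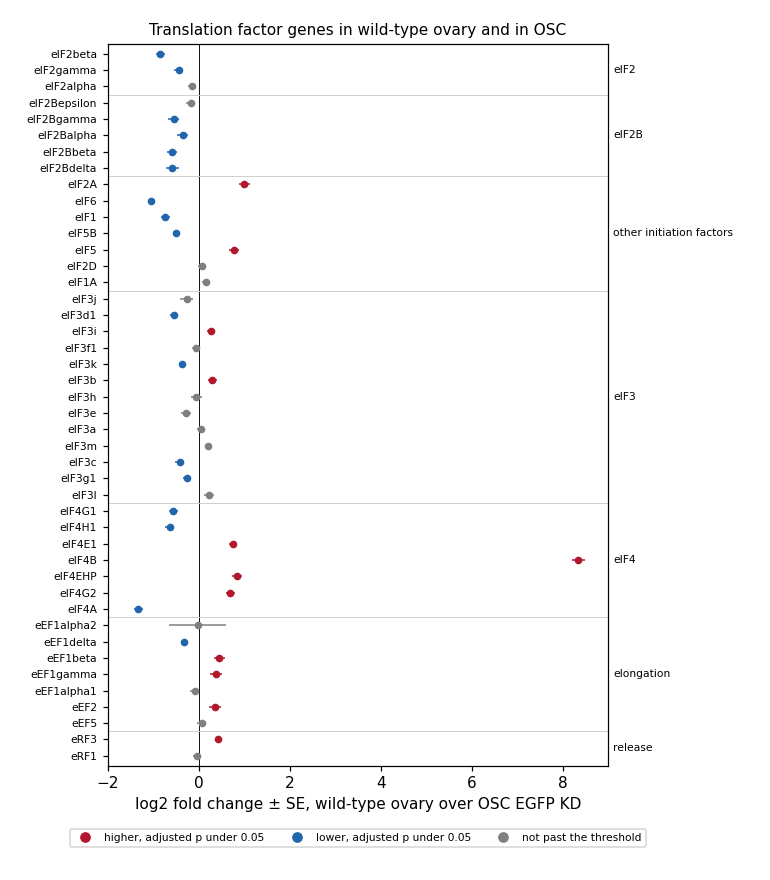
Log2 fold change with standard error of the 44 tested translation factor genes, 3 wild-type ovary libraries over 2 OSC EGFP KD libraries, in the row order used for the mutant ovaries (edgeR). eIF4B lies at 8.34, apart from all others, which run from -1.33 (eIF4A) to 1.00 (eIF2A).

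The cap-binding machinery differed gene by gene. eIF4A was the lowest in ovary relative to OSC, 1755, 1639.6 and 1637 TPM in wild-type ovaries against 3719.9 and 3743 TPM in EGFP KD OSC (log2 fold change -1.33 ± 0.11 (SE), adjusted p = 0.000219), and eIF4G1 was also lower (-0.56 ± 0.10 (SE), adjusted p = 0.00467). eIF4E1 was higher in ovary, 716, 736 and 695 TPM in wild-type ovaries against 402 and 425 TPM in EGFP KD OSC (log2 fold change 0.75 ± 0.09 (SE), adjusted p = 0.00104). eIF4EHP, the cap-binding repressor that acts on maternal mRNAs such as caudal, was higher at 0.83 ± 0.11 (SE) (adjusted p = 0.00141), and so was eIF4G2 at 0.69 ± 0.10 (SE) (adjusted p = 0.00197), a homologue of eIF4G1 known for its role in spermatogenesis. cup, the ovarian repressor that binds eIF4E1, was at 4.55 ± 0.19 (SE), and in all 11 of the 24 translation control genes were higher and 4 lower in ovary. Over all genes tested, 35.5% were higher and 33.3% lower.

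All 8 eIF2 and eIF2B genes had negative values, lower in ovary, and 6 were called. Of all genes tested in this comparison, 68.8% were called (35.5% higher, 33.3% lower), so a call by itself is common. eIF2beta had 328, 297 and 330.2 TPM in wild-type ovaries and 550.4 and 498 TPM in EGFP KD OSC (log2 fold change -0.84 ± 0.10 (SE), adjusted p = 0.00079). The others called were eIF2Bbeta (-0.58), eIF2Bdelta (-0.58), eIF2Bgamma (-0.55), eIF2gamma (-0.44) and eIF2Balpha (-0.36), and those not called were eIF2alpha (-0.15 ± 0.09 (SE), adjusted p = 0.183) and eIF2Bepsilon (-0.18). eIF6 had 145, 138 and 148 TPM in wild-type ovaries and 279 and 267 TPM in EGFP KD OSC (log2 fold change -1.05 ± 0.07 (SE), adjusted p = 0.000133). eIF1 (-0.74 ± 0.10 (SE), adjusted p = 0.00147) and eIF5B (-0.50) were lower as well. eIF2A was higher, with 315, 308 and 296 TPM in wild-type ovaries and 154 and 126 TPM in EGFP KD OSC (log2 fold change 1.00 ± 0.13 (SE), adjusted p = 0.00119), and so was eIF5 (0.78 ± 0.11 (SE), adjusted p = 0.00172, or 0.58 with the counts of CG46312 added).

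Of the 13 eIF3 genes tested, 2 were higher in ovary, eIF3b (0.30) and eIF3i (0.27), and 4 were lower, eIF3d1 (-0.55), eIF3c (-0.42), eIF3k (-0.36) and eIF3g1 (-0.26). Beside these counts and those of the elongation factors, 35.5% of all genes were higher and 33.3% lower. Of the 7 elongation factors, 3 were higher and 1 lower, and these included all 3 tested subunits of the exchange complex of eEF1alpha. eEF1beta (0.45 ± 0.12 (SE), adjusted p = 0.0213) and eEF1gamma (0.37 ± 0.13 (SE), adjusted p = 0.0446) were higher in ovary, and eEF1delta (-0.32 ± 0.08 (SE), adjusted p = 0.0126) was lower. eEF2 was higher by 0.36 ± 0.13 (SE) (adjusted p = 0.0496), a call lost in 7 of 11 alternatives. The call of eEF1gamma was lost in 5 of 11, and those of eEF1beta and eEF1delta in 2 of 11 each. eEF1alpha1 (-0.08 ± 0.11 (SE), adjusted p = 0.54) and eEF1alpha2 (-0.02 ± 0.63 (SE), adjusted p = 0.974) did not pass. Of the release factors, eRF3 was higher in ovary (0.43 ± 0.08 (SE), adjusted p = 0.00439) and eRF1 was not called (-0.05 ± 0.08 (SE), adjusted p = 0.635).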

How the data were processed

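RNA-seq of 12 libraries was analysed from gene tables. Per the paper's methods and the submitters' processing notes, the authors mapped reads to dm6 with STAR and RSEM. Versions and annotation release are not given in the sources used here, and the printed RSEM command holds no strand option. The authors deposited RSEM expected counts (not normalized for depth or length), TPM (scaled to the same sum in each library) and FPKM, which was not used. RSEM divides reads shared by genes, and 15.7% of nonzero expected counts were not whole, so they were rounded.

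Genes with CPM above 1 in at least 3 libraries (ovary) or 2 libraries (fits with OSC) were tested over the whole table with edgeR 4.0.16 in R 4.3.3 (TMM, quasi-likelihood F test, legacy setting, group only), and called at a Benjamini-Hochberg adjusted p under 0.05. The standard error is the log2 fold change divided by the root of F. Nothing in the labels says that replicates came from separate animals or cultures on separate days, so p-values measure the spread between these libraries. Same-numbered mutant and wild-type ovary libraries deviated together (correlations 0.214, 0.335 and 0.273 over genes), so a fit with the replicate number as a block was set beside the one without. No libraries of a group agreed within sampling noise (chi-square per degree of freedom 6.91 to 87.4). Limits from 3 counts cover counting error only.

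As alternatives, DESeq2 1.42.0, limma-voom (limma 3.58.1), RLE size factors, the newer edgeR algorithm, no filter, filterByExpr, the block, all 6 OSC libraries in a single fit, log2(TPM + 1) with limma in ovary, and fits without each library in turn were run. Symbols and coordinates (1-based) came from an Ensembl annotation of Release 6, which is dm6, and matched all but 97 of the gene identifiers. Promoter sequence came from the RefSeq genome of that release. It was read at 1 start per gene, the one most annotated transcripts share, or the most upstream of equals. Genes with more annotated starts, among them eIF4A (3) and eEF2 (2), were not searched at the others. Full statistics are given for the members called in mutant ovary, for the 10 called members with the largest change in each other comparison and, called or not, for a fixed list (eIF4A, eIF4E1, eIF4G1, eIF2alpha, eIF5, eIF6, eEF1alpha1, eEF1alpha2, eEF2, eRF1, eRF3 and mod(mdg4)), whose values in the OSC knockdowns are mostly given as fold changes alone. Other members may be named with their fold change. The members, gene lists and tests were chosen with earlier results of these data known. Of 10 mitochondrial factors listed, 9 matched a symbol.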

Additional observations from a re-analysis of the deposited data

Results flagged for a closer look

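For a pair of genes the response to Mod(mdg4)-N loss differed between ovary and OSC by the test of the difference itself. These are 2 of 44 members tested (4.55%), near the 3.31% of all genes tested. eIF3g1, an RNA-binding subunit of eIF3, was lower in mutant than in wild-type ovaries and slightly above the control in OSC Mod(mdg4)-N KD, with a difference (ovary minus OSC) of -0.571 on the log2 scale. eIF2A was higher in mutant than in wild-type ovaries and unmoved beyond its error in OSC Mod(mdg4)-N KD, with a difference of 0.702. Over the 17 alternatives run, the adjusted p of the difference was between 7.90e-05 and 0.164 for eIF3g1, which lost its call in 6, and between 0.000957 and 0.206 for eIF2A, which lost it in 10.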

How the results depend on the processing

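In ovary, the count of 15 called translation factors was 23 with DESeq2 (15 higher, 8 lower, of 2365 genes called in all). It was 19 in the fit with a replicate block (12 higher, 7 lower, of 2279 genes called in all). Both include the 15, and the fit without the block called 1438 genes in all. The block added eIF4A, eEF2, eIF4E1 and eIF3j and changed no other ovary call. Leaving out a library gave 0 to 15. In OSC, the fits for Mod(mdg4)-N KD called no member under any alternative, and those for Mod(mdg4)-All KD called 1 (eIF6) with DESeq2 and 1 with all 6 OSC libraries. For Mod(mdg4)-All KD directly against Mod(mdg4)-N KD, leaving out a library leaves 1 in a group, so such counts are not read here. Same-numbered OSC libraries correlated at 0.191 and 0.146 in the knockdown and control pairs and at -0.153 between knockdowns, and with that pairing crossed, chosen after seeing the data, 0 members were called. The count of 2 for the difference between ovary and OSC was 1 with RLE size factors, 1 with no filter, 14 with DESeq2, 7 with the replicate block and 0 to 8 with a library left out. For wild-type ovary against OSC, leaving out a library gave 18 to 29. The causes were not tested. No called member changed sign in any alternative. With 2 or 3 libraries a group, a change that missed the threshold is not shown to be absent, and genes under about 1 CPM (the 9 untested members, and eEF1alpha2 and OSC eIF4B beside them) are limited by depth.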

Other observations

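Of the 9 members too low to be tested, some eIF4E genes are given here by count, and such counts are too few to compare between mutant and wild type. eIF4E3, which flies need for making sperm, had 13, 6 and 1 counts in mutant ovaries and 1, 0 and 1 in wild-type ovaries. eIF4E5 had 10, 6 and 12 counts in mutant ovaries and 2, 7 and 3 in wild-type ovaries. eIF4E6 had 0 to 4 counts in the 6 ovary libraries and 8 to 14 in the 6 OSC libraries. eIF4E7 had 2, 1 and 0 counts in mutant ovaries and none elsewhere. No test was run on these values.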
